A study of Mus musculus with 6 samples.

Results

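Cish, Socs1, Socs2 and Socs3 encode CIS and the SOCS proteins, which switch off cytokine signals inside the cell. They were taken by symbol from a table of gene counts, which holds all 4 of them among its 57180 genes, and all 4 had enough counts to be tested. The libraries came from NK cells of the livers of male C57BL/6J mice, sorted into CD36+ NK and CD36- NK, with 3 libraries in each fraction. The study's flow cytometry defined NK cells as CD3- NK1.1+, and its account of the RNA sequencing names no gate for this sort. All mice were 6 to 8 weeks old and carried liver fibrosis induced by CCl4, given at 2.5 ml/kg of a 20% solution in olive oil, 2 times per week for 4 weeks, and the livers were taken 48 h after the last injection. CD36 is a scavenger receptor that takes up fatty acids, and the comparison asks which genes differ between NK cells that carry it and those that do not. No library from mice without CCl4 was analysed here, so the values show a difference between sorted fractions of injured livers and no effect of the injury.

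Cytokines such as IL-15, IL-12 and the interferons act on NK cells through receptors bound to JAK kinases, which phosphorylate STAT factors that then enter the nucleus. CIS and SOCS genes are among the first targets of those STAT factors, and their proteins act back on the same receptors and kinases, which closes a negative feedback loop. CIS, the product of Cish, restrains IL-15 signals in NK cells. SOCS1 blocks JAK kinases and limits interferon signals, SOCS2 limits growth hormone signals, and SOCS3 binds gp130 and limits IL-6 signals.

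The reference promoters of 3 of the 4 genes are shown because STAT and IRF factors act on these genes through short motifs in the DNA. Each runs from 250 bases before to 50 bases after the start of the gene in RefSeq on GRCm38.p6, 5′ to 3′ on the strand of the gene, and capitals mark the motif matches.
Cish, chr9:107296409-107296708, plus strand: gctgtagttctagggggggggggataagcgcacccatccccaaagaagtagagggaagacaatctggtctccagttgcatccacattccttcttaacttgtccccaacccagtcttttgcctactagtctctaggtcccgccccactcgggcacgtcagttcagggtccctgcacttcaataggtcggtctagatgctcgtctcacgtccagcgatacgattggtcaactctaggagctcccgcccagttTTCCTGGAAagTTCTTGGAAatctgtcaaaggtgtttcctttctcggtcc
Socs1, chr16:10785487-10785786, minus strand: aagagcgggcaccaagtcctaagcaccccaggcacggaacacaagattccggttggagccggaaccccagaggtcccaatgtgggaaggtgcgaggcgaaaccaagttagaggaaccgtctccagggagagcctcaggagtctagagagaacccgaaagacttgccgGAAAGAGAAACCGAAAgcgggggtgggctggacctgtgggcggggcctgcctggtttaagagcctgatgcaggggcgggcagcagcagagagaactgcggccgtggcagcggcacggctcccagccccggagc
Socs3, chr11:117969317-117969616, minus strand: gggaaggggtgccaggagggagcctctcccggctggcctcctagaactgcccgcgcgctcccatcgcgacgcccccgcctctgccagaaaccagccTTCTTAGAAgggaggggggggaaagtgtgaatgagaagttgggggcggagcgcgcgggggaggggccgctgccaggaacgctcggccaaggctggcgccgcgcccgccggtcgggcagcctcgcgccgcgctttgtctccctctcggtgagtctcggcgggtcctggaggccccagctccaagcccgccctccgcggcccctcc
The STAT motif was searched as TTCNNNGAA, which reads the same on both strands, and the IRF motif as GAAANNGAAA on both strands. Cish had a pair of STAT matches directly at its start, TTCCTGGAA at bases 1 to 9 and TTCTTGGAA at bases 12 to 20. A single STAT match, TTCTTAGAA, lay at bases -154 to -146 of Socs3. Socs1 had no STAT match in this window but held a pair of IRF matches that overlap each other, GAAAGAGAAA at bases -83 to -74 and GAAACCGAAA at bases -77 to -68. Of 32851 mouse promoters of this length, 8.3% held the STAT motif, 0.457% held it 2 or more times, and 3.44% held the IRF motif. These matches describe the letters only, and binding was not measured.

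The libraries held 10292480 to 13787189 counts, and 14761 genes entered the edgeR quasi-likelihood test. Cd36 was checked first and had 1232, 3569 and 2859 counts in CD36+ NK and 186, 359 and 175 in CD36- NK, which gave 3.27 as log2 fold change (SE 0.426, adjusted p = 0.00615). The names of the sequencing libraries give the sign of CD36 in a form that can be read the other way round, and the sample titles, which Cd36 follows, were used. All 10 NK lineage markers were DEGs, defined as an adjusted p below 0.05 with a change over 2-fold, and lower in CD36+ NK. Their median log2 fold change was -2.45, and they summed to 912.6 to 1102 CPM, the counts scaled to library size, against 4885 to 6235 in CD36- NK. Of 9 tested macrophage and Kupffer cell markers of 11 listed, 4 were DEGs and all 4 were higher, and the list summed to 6607 to 8914 CPM in CD36+ NK against 2461 to 5726. The Kupffer cell markers Clec4f and Vsig4 did not pass the filter on low counts and lay almost wholly in CD36+ NK replicate 2, where they had 624 and 181 counts. In the other 5 libraries Clec4f had 0 to 17 counts and Vsig4 0 to 10. Monocyte markers went mostly the other way, with 5 of 6 lower, a median log2 fold change of -1.07 and 1 DEG in each direction. Dendritic cell markers summed to 276.9 to 342.3 CPM against 453.9 to 644.0, and of 6 tested, 2 were DEGs and higher and 1 was a DEG and lower. B cell markers summed to 4387 to 4880 CPM against 2965 to 3387, and none of the 6 hepatocyte markers had enough counts to be tested. RNA of macrophage and B cell markers was thus measured in both fractions, and fewer cells of a type and less RNA per cell cannot be told apart in bulk RNA.

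None of the 4 genes was a DEG, and none passed the adjusted p alone. Among all tested genes 5.96% were DEGs and 10.5% passed the adjusted p alone. Cish, Socs1 and Socs2 had negative log2 fold changes and Socs3 a positive one, and the median over the 4 genes was -0.46 against 0.01 over all tested genes. At an unadjusted p below 0.05, 1 of the 4 was left, Socs1, close to the 26.3% of all tested genes that passed there. Socs1 also passed the adjusted p in DESeq2, as did 15.7% of all genes, and in edgeR's exact test, as did 15.3%, in both below 2-fold. It passed as well, below 2-fold, in edgeR's quasi-likelihood test with the form of the library name (described with Cish) as a block (adjusted p = 0.04) or with pairs drawn within each form (adjusted p = 0.041), which joined replicates 1, 2 and 3 of CD36+ NK to replicates 1, 3 and 2 of CD36- NK. Of these only CD36+ NK replicate 2 and its partner share a number in the library names. With the form as a block 1720 genes passed the adjusted p and with the pairs 1988, against 1552 without a block. In 2 of the 4 genes, Socs1 and Socs2, the libraries of the fractions did not overlap, with CD36- NK the higher in both. Of all tested genes 32.8% did not overlap, 15.7% with CD36- NK the higher and 17.0% with CD36+ NK the higher.

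**Figure D1:**
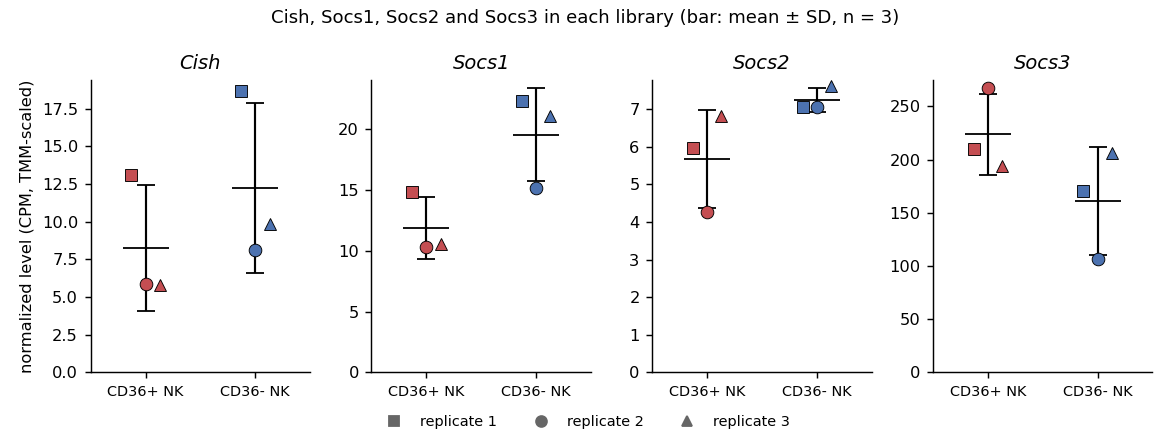
Normalized level (CPM scaled by TMM, linear axes from 0, a separate scale for each gene) of Cish, Socs1, Socs2 and Socs3 in 3 CD36+ NK and 3 CD36- NK libraries, with the mean and SD of each group and marker shapes for the replicate number. The CD36- NK libraries of Socs1 sit between 15.2 and 22.4 CPM and those of CD36+ NK between 10.3 and 14.9, whereas the groups overlap in Cish and Socs3.

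Socs1 (ENSMUSG00000038037) came closest to a call. It lies on the minus strand of chromosome 16 at 10600104 to 10603400 in the table's own coordinates, whose build the table does not name. It had 167, 140 and 127 counts in CD36+ NK and 291, 172 and 216 in CD36- NK. Scaled to library size these were 14.9, 10.3 and 10.6 CPM against 22.4, 15.2 and 21.1 CPM. Every CD36- NK library lay above every CD36+ NK library, but the lowest of the former, replicate 2, was close to the highest of the latter, replicate 1. The means were 11.9 ± 2.56 CPM (SD, n = 3) and 19.6 ± 3.82 CPM (SD, n = 3). The log2 fold change was -0.72 (SE 0.212), with a 95% interval of -1.22 to -0.22. The adjusted p was 0.0758 in edgeR's quasi-likelihood test, and the gene ranked 2211 by p. Leaving out either of the libraries nearest to the other group brought Socs1 past the adjusted p in the same edgeR test, at a log2 fold change of -0.92 (adjusted p = 0.0388) without CD36+ NK replicate 1 and -0.87 (adjusted p = 0.047) without CD36- NK replicate 2. In those 2 fits 1743 and 1750 genes passed the adjusted p, against 1552 with all libraries. Leaving out any of the other 4 libraries gave adjusted p-values of 0.201 to 0.225 in the edgeR test. There 525 to 666 genes passed.

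Cish (ENSMUSG00000032578), the brake on IL-15 signals, varied more between replicates than between the fractions. It lies on the plus strand of chromosome 9 at 107173225 to 107179983, and a pair of antisense gene models over it had 0 counts in all libraries. Its counts were 147, 80 and 70 in CD36+ NK and 243, 92 and 101 in CD36- NK. These were 13.1, 5.89 and 5.82 CPM against 18.7, 8.13 and 9.86 CPM. Replicate 1 was the highest library of each fraction, and CD36+ NK replicate 1 lay above 2 of the 3 CD36- NK libraries, so the groups overlapped. The means were 8.26 ± 4.18 CPM and 12.2 ± 5.66 CPM (SD, n = 3 each), a log2 fold change of -0.57 (SE 0.428) with a 95% interval of -1.58 to 0.43 and an adjusted p of 0.459 in the edgeR test. The value was -1.08 without CD36+ NK replicate 1 and -0.13 without CD36- NK replicate 1.

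The replicate 1 libraries also carry names of another form than the rest, in lower case with a leading number. The labels do not say what the form stands for. Within replicate 1, Cish differed between CD36+ NK and CD36- NK by -0.46 in log2(CPM + 2), and within replicates 2 and 3 by -0.48. The gap between replicate 1 and the mean of the other 2 libraries was larger, 0.94 in CD36+ NK and 0.92 in CD36- NK on the same scale. With the name form as a block the SE of Cish fell to 0.143, and its adjusted p in edgeR's quasi-likelihood test was 0.054. Neutrophil markers summed to 2170, 309.9 and 377.5 CPM in CD36+ NK and 1739, 941.8 and 687.8 CPM in CD36- NK, so replicate 1 was the highest library of each fraction there too. None of the 6 neutrophil markers passed the test between the fractions, at the adjusted or at the unadjusted p. T cell markers summed to 255.3 CPM in CD36+ NK replicate 1 and to 22.4 to 44.5 CPM in the other 5 libraries, with the T cell receptor subunit Cd3e at 27.0 CPM in that library and at no more than 1.06 CPM elsewhere. Of the 6 T cell markers, Cd4 and Cd8a were DEGs and higher in CD36+ NK, by 2.34 and 3.17 on the log2 scale (adjusted p = 0.0396 for both, edgeR), without overlap between the fractions. In CD36+ NK replicates 2 and 3 both thus lay above every CD36- NK library, while Cd3e stayed at no more than 1.06 CPM there. Which cells carried Cd4 and Cd8a was not tested. The part of neutrophils or T cells in the levels of Cish and Socs1 was not tested either.

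**Figure D2:**
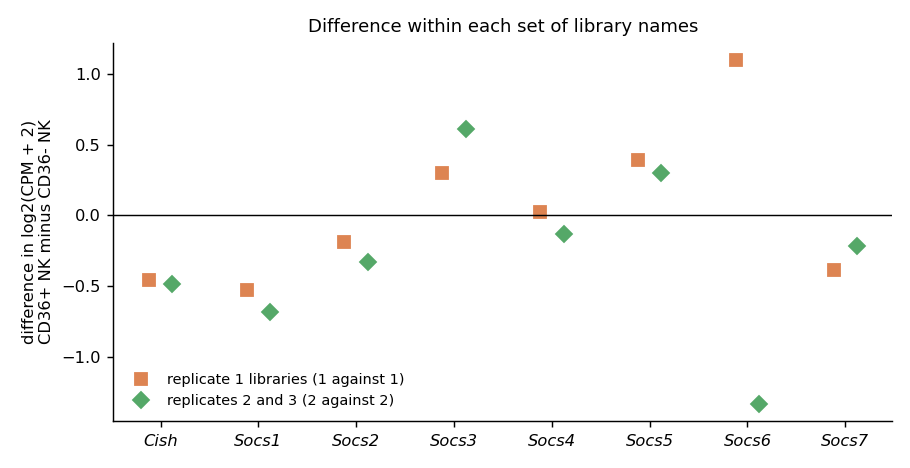
Difference in log2(CPM + 2) between CD36+ NK and CD36- NK for the 8 genes of the CIS and SOCS family, computed in the replicate 1 libraries alone (squares, 1 against 1) and in replicates 2 and 3 (diamonds, 2 against 2). Cish shows nearly the same difference in both sets, -0.46 and -0.48, whereas Socs6 changes sign, from 1.10 to -1.33.

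Socs1, Socs2 and Socs3 also kept their direction in both sets of names. On the log2(CPM + 2) scale Socs1 differed by -0.53 in replicate 1 and -0.68 in replicates 2 and 3. The differences were -0.19 and -0.33 for Socs2 and 0.30 and 0.61 for Socs3. A pair of single libraries allows no test, and the second set holds 2 libraries a group.

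Socs2 (ENSMUSG00000020027), on the minus strand of chromosome 10 at 95221224 to 95253042, was the least abundant of the 4 genes. Counts were 67, 58 and 82 in CD36+ NK and 92, 80 and 78 in CD36- NK. The normalized levels were 5.96, 4.27 and 6.82 CPM against 7.07, 7.07 and 7.62 CPM. The CD36- NK libraries were close together and all above the CD36+ NK libraries, which spread more widely. Means of 5.68 ± 1.298 and 7.26 ± 0.315 CPM (SD, n = 3 each) gave a log2 fold change of -0.35 (SE 0.215), a 95% interval of -0.86 to 0.15 and an adjusted p of 0.357 in the edgeR test. The value was -0.18 without CD36+ NK replicate 2 and -0.505 without CD36+ NK replicate 3. The absence of overlap therefore came with a difference that did not pass the test.

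Socs3 (ENSMUSG00000053113), the brake on gp130 receptors, was the only one of the 4 genes with a higher mean in CD36+ NK. It lies on the minus strand of chromosome 11 at 117856905 to 117860873. Its counts of 2362, 3630 and 2338 in CD36+ NK and 2218, 1202 and 2111 in CD36- NK were far above those of the other 3 genes. They corresponded to 210.2, 267.1 and 194.4 CPM against 170.5, 106.3 and 206.2 CPM. CD36- NK replicate 3 lay above CD36+ NK replicate 3, so the groups overlapped, and replicate 2 was the highest library of CD36+ NK and the lowest of CD36- NK. The means were 224 ± 38.2 and 161 ± 50.6 CPM (SD, n = 3 each), a log2 fold change of 0.48 (SE 0.244) with a 95% interval of -0.10 to 1.05 and an adjusted p of 0.273 in the edgeR test. The value was 0.25 without CD36- NK replicate 2, 0.33 without CD36+ NK replicate 2 and 0.69 without CD36- NK replicate 3. CD36+ NK replicate 2, the highest library of Socs3, was also the one that held nearly all Clec4f and Vsig4 counts. The summed macrophage and Kupffer cell markers were highest in CD36+ NK replicate 3, at 8914 CPM against 7599 in replicate 2. Replicate 3 was the lowest CD36+ NK library of Socs3. The part of macrophages and Kupffer cells in the level of Socs3 was not tested.

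Ratios between the genes were compared within libraries, which removes the library size. Over the 6 pairs, the log2 ratio of Socs1 to Socs3 differed most, by -1.14 between CD36+ NK and CD36- NK. It was -3.65, -4.45 and -3.97 in CD36+ NK and -2.82, -2.65 and -3.17 in CD36- NK. The groups did not overlap, and the exact two-sided permutation test gave p = 0.1, the smallest that 3 against 3 libraries allow, or 0.3 after adjustment over the 6 pairs. The ratio of Socs2 to Socs3 differed by -0.79, also without overlap, with the same exact permutation p of 0.1 and adjusted value of 0.3. With 1 library left out it ran from -0.99 (without CD36+ NK replicate 3) to -0.52 (without CD36+ NK replicate 2). The ratio of Cish to Socs3 differed by -0.98 with overlap (exact permutation p = 0.2). Without CD36+ NK replicate 1 it was -1.335, slightly past the -1.326 of Socs1 to Socs3 there. Ratios among Cish, Socs1 and Socs2 differed by -0.35 to 0.16, and all 3 overlapped. The lowest, Socs1 to Socs2, ran from -0.49 (without CD36- NK replicate 2) to -0.18 (without CD36+ NK replicate 3) with 1 library left out.

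Levels per length were compared with the deposited FPKM, which divide counts by gene length and library size. In all 6 libraries the order was Socs3, Socs1, Cish and Socs2. Socs3 had 64.7, 80.1 and 56.5 FPKM in CD36+ NK and 52.4, 33.3 and 62.4 in CD36- NK. Its share of the summed FPKM of the 4 genes was 93.7, 96.8 and 95.3% in CD36+ NK and 89.3, 89.0 and 92.3% in CD36- NK. Socs1 ran from 1.81 to 4.05 FPKM, Cish from 0.513 to 1.74 and Socs2 from 0.307 to 0.554. The ranges of Socs3, Socs1 and Cish lay apart from each other, while those of Cish and Socs2 overlapped across libraries. The lengths behind the FPKM were 10850 bases for Cish and 5587 for Socs1, more than the 6759 and 3297 bases that these genes span. With merged exon lengths from GENCODE M21 in their place, 6419, 2908, 9531 and 2891 bases for Cish, Socs1, Socs2 and Socs3, the order was the same in 6 of 6 libraries.

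**Figure D3:**
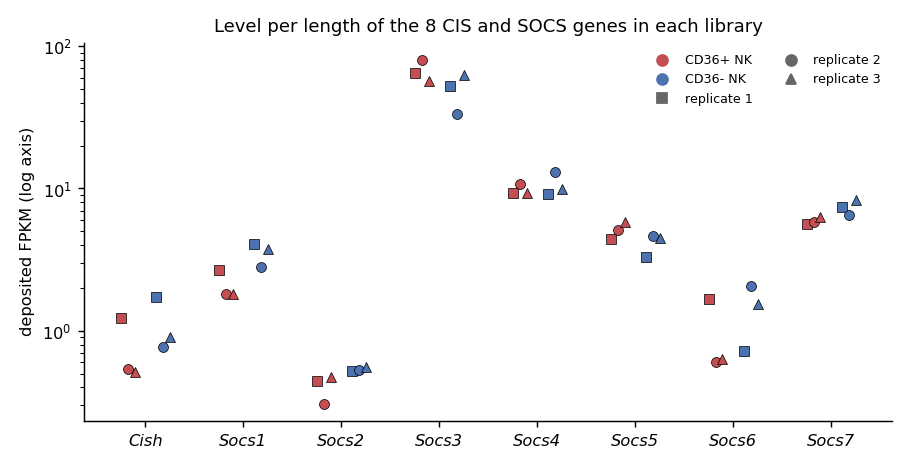
Deposited FPKM (log axis) of the 8 CIS and SOCS genes in each library, in red for CD36+ NK and blue for CD36- NK, with marker shapes for the replicate number. Socs3 is the highest in every library, at 33.3 to 80.1 FPKM, and Socs2 the lowest, at 0.307 to 0.554 FPKM.

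The other 4 genes of the family were no DEGs either. Socs4 to Socs7 encode proteins with the same SH2 domain and SOCS box, and in FPKM Socs4 came next after Socs3, followed by Socs7, in 6 of 6 libraries. Log2 fold changes were -0.09 for Socs4 (adjusted p = 0.75), 0.35 for Socs5 (0.273), -0.55 for Socs6 (0.544) and -0.29 for Socs7 (0.215) in the edgeR test, and none of the 4 passed at an unadjusted p below 0.05, in DESeq2 or in edgeR's exact test. Socs6 had 30.8, 11.5 and 12.4 CPM in CD36+ NK and 13.3, 37.5 and 29.1 CPM in CD36- NK. The replicate 1 libraries of Socs6 were thus in the opposite order to the others. The log2 fold change of Socs6 was -1.17 without CD36+ NK replicate 1 and -0.21 without CD36- NK replicate 2, and that of Socs5 was 0.19 without CD36- NK replicate 1 and 0.23 without CD36+ NK replicate 3. Socs5 ran at 32.9 to 46.1 CPM against 24.6 to 34.3 CPM, and Socs7 at 46.4 to 55.4 against 53.1 to 70.2 CPM.

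**Figure D4:**
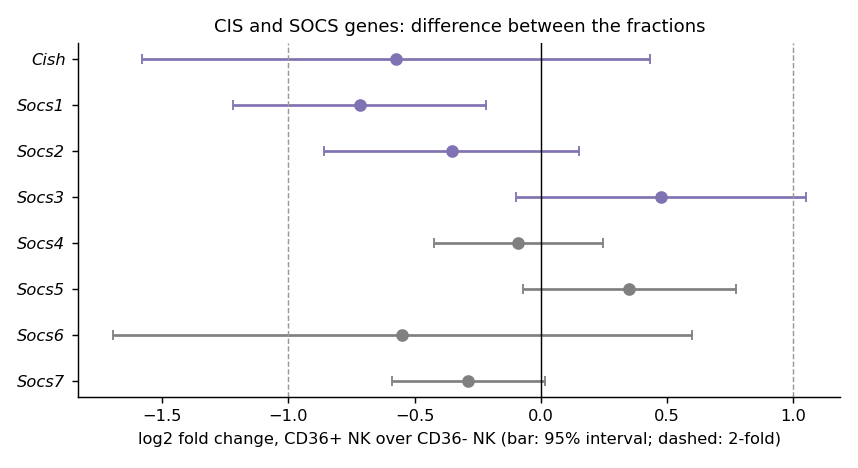
Log2 fold change between CD36+ NK and CD36- NK with its 95% interval for Cish and Socs1 to Socs7, with dashed lines at 2-fold. The interval of Socs1, -1.22 to -0.22, is the only one of the 8 that leaves out 0, and those of Cish and Socs6 are the widest.

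The genes were also read relative to the NK markers. The mean log2(CPM + 2) of the 10 NK lineage markers was 6.37 ± 0.138 in CD36+ NK and 8.78 ± 0.179 in CD36- NK (SD, n = 3 each), a difference of -2.40. A gene with equal levels in both fractions takes a difference of 2.40 relative to this mean by construction, so a positive value on this scale is no sign of a rise. The values were 1.93 for Cish, 1.77 for Socs1, 2.12 for Socs2 and 2.91 for Socs3 on the log2 scale, the first 3 below 2.40 and the last above it. Socs4 to Socs7 differed by 1.88 to 2.74 on the same scale. Which cells of the fractions carried the RNA of the 4 genes was not tested.

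The genes whose levels followed each member most closely over the 6 libraries were taken by Pearson's r of log2(CPM + 2), as a description in which the points share libraries and depth. For Cish these were Snrpd2 (r = 0.997), Triobp (0.991) and Ppib (0.991). Socs1 went with Ints10 (0.995), an unnamed gene, ENSMUSG00000121319 (0.994), and Cuta (0.994). Socs2 had Armc5 (0.994), Ccdc85c (0.987) and Mvb12b (0.9804) nearest to it, and Socs3 had Urb1 (0.996), Bard1 (0.987) and Ccdc58 (0.977). None of these 12 passed the adjusted p in the edgeR test. Among the members, r was 0.83 for Cish and Socs1, 0.67 for Socs1 and Socs2 and 0.39 for Cish and Socs2, and it was -0.17, -0.31 and -0.61 for Socs3 with Cish, Socs1 and Socs2.

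The pathway on which the brakes act was described with 11 lists of 86 genes, including Socs4 to Socs7. Of the 76 tested, 10 were DEGs (13.2%), beside 5.96% of all genes. In CD36+ NK 3 of them were higher and 7 lower, beside 2.98% of all genes in each direction, and the median log2 fold change was -0.05. The DEGs below have adjusted p-values from edgeR's quasi-likelihood test.

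Receptors and kinases upstream of Cish held 4 of the 7 lower genes. Il2rb, the receptor chain shared by IL-2 and IL-15, had 358.5, 310.0 and 246.9 CPM in CD36+ NK and 1360, 1173 and 1684 in CD36- NK, and fell by 2.20 on the log2 scale (adjusted p = 0.00135, edgeR). The IL-12 receptor chains Il12rb1 and Il12rb2 fell by 1.64 (adjusted p = 0.00117, edgeR) and 2.24 (adjusted p = 0.000726, edgeR). These 3 were the only DEGs among 9 receptors of the common gamma chain and IL-12 families, whose median was -0.49. Jak1, a kinase that SOCS1 inhibits, fell by 1.03 (adjusted p = 0.00392, edgeR) and was 1 of 4 JAK kinases called, with a list median of -0.62. The kinases Tyk2 and Jak3 passed the adjusted p below 2-fold, at -0.77 (adjusted p = 0.00429, edgeR) and -0.47 (adjusted p = 0.0405, edgeR), as did the common gamma chain Il2rg, at -0.49 (adjusted p = 0.0275, edgeR). Among 7 STAT factors only Stat4, which carries the IL-12 signal, was a DEG, and it fell by 1.62 (adjusted p = 0.00158, edgeR), while the list median was -0.01. In these libraries Cish and Socs1, targets of that signalling, had log2 fold changes of -0.57 and -0.72, neither past the adjusted p (0.459 and 0.0758, edgeR). Socs3, a STAT target too, went the other way at 0.48 (adjusted p = 0.273, edgeR). The fall of these receptors stood beside that of the NK markers, whose median was -2.45, and the part of the NK share in it was not tested.

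Receptors of the gp130, IL-10 and growth hormone families, of which SOCS3 acts on gp130 and SOCS2 on the growth hormone receptor, had a median of 0.65 over 6 tested of 10, with Osmr, Lepr, Ghr and Prlr too low to be tested. One of them, the LIF receptor chain Lifr, was a DEG and rose by 1.84 (adjusted p = 0.00329, edgeR), from 4.98 to 7.53 CPM in CD36- NK to 20.1 to 27.0 CPM in CD36+ NK. Il6st, which encodes gp130 itself, passed the adjusted p below 2-fold, at 0.54 (adjusted p = 0.0399, edgeR). In DESeq2 and in edgeR's exact test 4 of the 6 passed the adjusted p, beside 15.7% and 15.3% of all genes. In each, 2 were DEGs, out of 1143 and 1243 over all genes. Macrophage and B cell markers were higher in CD36+ NK too, with medians of 2.87 and 0.51, and their part in these receptors was not tested. None of the 4 interferon receptors was a DEG or passed the adjusted p in the edgeR test, 2 of them, Ifnar1 and Ifngr2, passed at an unadjusted p below 0.05, beside 26.3% of all genes, and 2 passed the adjusted p in DESeq2 and 1 in edgeR's exact test, beside 15.7% and 15.3% of all genes. Their log2 fold changes were -0.30 for Ifnar1 (adjusted p = 0.0645, edgeR) and 0.61 for Ifngr2 (adjusted p = 0.0807, edgeR).

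Cytokines split in direction. Of 10 tested of 16, with Il2, Il4, Il7, Il21, Ifnb1 and Csf3 too low to be tested, Ifng fell by 2.58 (adjusted p = 0.008, edgeR), while Il10 rose by 2.84 (adjusted p = 0.0136, edgeR) and Il18 by 1.78 (adjusted p = 0.0435, edgeR). Ifng, the interferon that NK cells secrete, had 38.6, 56.3 and 59.2 CPM in CD36+ NK and 210.9, 217.9 and 493.2 CPM in CD36- NK. Il10 was low, at 3.90 to 5.25 CPM against 0.195 to 1.08 CPM. The NK lineage markers had a median of -2.45 and the tested macrophage and Kupffer cell markers one of 2.87, and the part of these cells in the cytokine levels was not tested. The call on Il18 was lost when CD36+ NK replicate 2 or 3 or CD36- NK replicate 1 or 3 was left out, with adjusted p-values of 0.0989, 0.117, 0.137 and 0.135 in the edgeR test. It was also lost with the replicate number as a block (adjusted p = 0.0911, edgeR) and without a filter on low counts (adjusted p = 0.0577, edgeR).

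Genes that STAT factors induce, and that are read beside Cish and Socs3 as targets of the same signals, mostly did not pass the adjusted p. Among 9 STAT5-induced genes only the kinase Pim2 was a DEG and fell by 1.05 (adjusted p = 0.00753, edgeR), and the median was -0.36. The cyclin Ccnd2 passed the adjusted p below 2-fold, at -0.53 (adjusted p = 0.0175, edgeR). Of the 9, 2 thus passed the adjusted p, beside 10.5% of all genes. At an unadjusted p below 0.05, 4 of the 9 passed, beside 26.3% of all genes. Jak1 and Pim2 were only just past 2-fold, and without CD36- NK replicate 3 they were at -0.93 and -0.94, while Pim2 was at -0.98 without CD36+ NK replicate 3. None of 8 STAT3-induced genes was a DEG in edgeR's quasi-likelihood test, in DESeq2 or in edgeR's exact test, and their median was 0.02. Bcl6, a repressor, was the 1 of these 8 that passed at the unadjusted and at the adjusted p, with 0.66 (adjusted p = 0.0197, edgeR), and Hif1a had 0.19 (adjusted p = 0.234, edgeR).

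The partners of the SOCS proteins and the other brakes held no DEG. The SOCS box recruits elongins and cullins to mark bound proteins for degradation, and 0 of 6 of these partners passed in the edgeR test, also at an unadjusted p below 0.05, in DESeq2 and in edgeR's exact test. Their median was -0.02, with Cul2 at -0.25 (adjusted p = 0.241, edgeR) and Rbx1 at -0.05 (adjusted p = 0.834, edgeR). Among 13 other brakes on JAK-STAT signalling, such as phosphatases and PIAS proteins, 0 were DEGs with a median of -0.12, and 5 passed at an unadjusted p below 0.05, beside 26.3% of all genes. In DESeq2 and in edgeR's exact test 4 of the 13 passed the adjusted p and 0 were DEGs. The phosphatase Ptpn2 passed the adjusted p below 2-fold, at -0.52 (adjusted p = 0.0245, edgeR), and Ptpn6, the phosphatase SHP-1, missed it at 0.53 (adjusted p = 0.0512, edgeR).

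**Figure D5:**
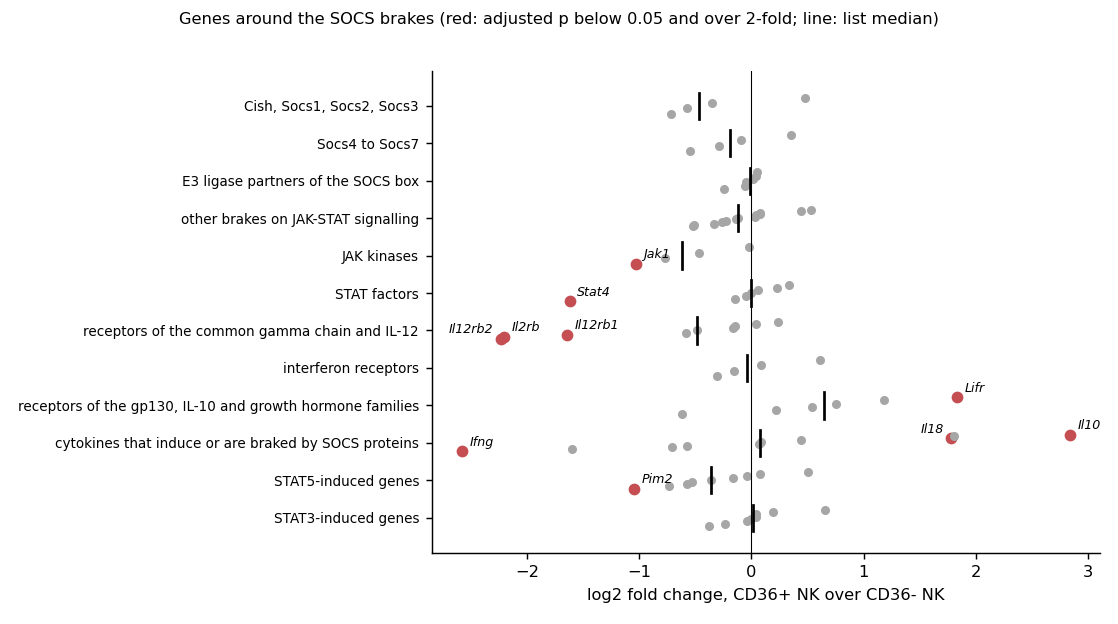
Log2 fold change between CD36+ NK and CD36- NK of each tested gene in the lists around the CIS and SOCS genes, 1 point a gene, with DEGs in red and named and a line at each list's median. The 4 brakes lie between -0.72 and 0.48, while the DEGs run from -2.58 (Ifng) to 2.84 (Il10).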

How the data were processed

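The study sorted NK cells of fibrotic livers by CD36 and sequenced their RNA, with 3 libraries in each fraction, which the series calls biological triplicates. Whether they came from separate mice is not given in the sources used here, so p-values measure the spread between these libraries. The counts were deposited by the authors as raw fragments per gene, from StringTie after Seqtk filtering and HISAT2 mapping. The deposited FPKM values are the same counts over gene length and library total, tested here on 7439 genes, and served for levels per length only. The submitters' processing notes list HISAT2 2.0.4 and the rat build mRatBN7.2, although the identifiers are mouse, and the table names no build, so its own coordinates are given. Line breaks inside 2 entries of the table, neither of them a member, were repaired. Reference promoters are from RefSeq. Strand was not given for the counting in the sources used here.

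Counts were tested with edgeR 4.0.16 (R 4.3.3): filterByExpr with a minimum count of 10, TMM scaling, the quasi-likelihood test without a block, and Benjamini-Hochberg adjustment over the 14761 genes kept. DEGs had to pass both thresholds of the study, an adjusted p of 0.05 and a 2-fold change. Libraries held 10292480 to 13787189 counts, and the biological coefficient of variation was 20.3%. Libraries of a group were compared for repeat deposits, and no pair agreed within sampling noise (chi-square over degrees of freedom 13.5 to 26.5). That does not show that they are biological replicates. Log2 levels carry a pseudocount of 2 CPM. Exact permutation tests used scipy 1.17.1. On simulated counts for CD36+ NK against CD36- NK over 14761 genes, 200 of 200 genes changed 4-fold were called, with 1 unchanged gene. The simulation held no smaller change and gave all genes the same dispersion. It therefore does not show how often changes below 2-fold, such as those of the 4 genes, would be found.

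The 4 genes and all gene lists were chosen with earlier results of these data known. A further list of induced genes is not reported here and enters no count over the pathway lists. The named genes are the members, Cd36, the rest of the family, the DEGs of each pathway list or else its 2 genes of lowest p, and the 3 tested genes most correlated with each member. The markers Cd3e, Cd4, Cd8a, Clec4f and Vsig4, the genes Il6st, Tyk2, Jak3, Il2rg and Ccnd2, which passed the adjusted p below 2-fold, and those too low to be tested were named after their values were seen. The alternatives were other scalings and filters, DESeq2 1.42.0, edgeR's exact test, blocks, each library left out and another fold threshold. A further one, levels over merged exon length, was chosen after seeing the data. The replicate numbers come from the titles, and no source used here says that they pair animals.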

Additional observations from a re-analysis of the deposited data

How the results depend on the processing

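Cish, Socs1 and Socs2 stayed negative and Socs3 positive under every scaling, filter, test, block and left-out library, and Cish, Socs2 and Socs3 never passed the adjusted p. Socs1 did, below 2-fold, at -0.72 in edgeR's exact test (adjusted p = 0.0354), -0.73 with the library name form as a block (adjusted p = 0.04, edgeR), -0.72 with pairs within each name form (adjusted p = 0.041, edgeR) and -0.72 in DESeq2 (adjusted p = 0.0299). Its adjusted p ran from 0.0299 to 0.225 over the alternatives, and leaving out 1 library gave -0.92 to -0.62. Deviations of same-numbered libraries correlated at 0.367 for number 1 and at 0.0871 and -0.086 for numbers 2 and 3, so the numbers are not known to pair samples, and pairs within each name form, of which 1 shares a library number, gave 0.367, 0.13 and 0.288. In the fit with a replicate block (the title number), Socs1 was -0.71 (adjusted p = 0.0586, edgeR), Cish -0.58 (adjusted p = 0.0874, edgeR), 560 genes were DEGs (221 higher and 339 lower, against 440 each) and 907 passed the adjusted p alone, against 1552. Pairs within each name form moved the counts the other way, to 1061 DEGs (626 higher and 435 lower) and 1988 past the adjusted p. With the name form as a block there were 912 DEGs (475 higher and 437 lower) and 1720 past the adjusted p. Without 1 library there were 417 (CD36- NK replicate 1) to 1160 DEGs (CD36- NK replicate 2), 22.5% to 61.0% of them higher, and 525 to 1750 genes past the adjusted p. The counts without CD36+ NK replicates 2 and 3 and CD36- NK replicate 3 were 418, 451 and 431. Tests differed too, with 1243 DEGs in edgeR's exact test, 1143 in DESeq2 and 1304 above 1.5-fold. The cause was not tested. Without 1 library, Socs4 ran from -0.21 to 0.0612 (without CD36- NK replicate 2), the ratio of Cish to Socs1 from -0.00853 (without CD36+ NK replicate 1) to 0.37, and that of Cish to Socs2 from -0.47 to 0.0761 and 0.13 (without CD36+ NK replicate 3 and CD36- NK replicate 1). Socs2 had the fewest counts of the 4 genes in total, 457, at 58 to 92 per library, though in CD36+ NK replicate 3 Cish had fewer, 70 against 82.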
